A study of Bos taurus with 6 samples.

Results

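Organic solute carriers and ATP-binding cassette (ABC) genes were compared between forebrain, liver and rumen of bovine fetuses. The 79 genes were chosen by name from a table of 14179 gene symbols: all rows of the solute carrier families SLC10, SLC13, SLC15, SLC19, SLC22, SLC23, SLC27, SLC28, SLC29 and SLC47, of the SLCO family, and of the ABC subfamilies A to G, with ABCA3 left out. The rule itself used no measured value, but it was set with earlier results of these data known. The RefSeq gene table listed all 79, and 35 further RefSeq symbols of the same families, among them ABCB1, ABCB4, ABCC2, ABCC9, SLC10A2, SLC23A1 and SLC47A1, were not analysed here.

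The SLC and SLCO proteins are membrane carriers that move bile acids, peptides, vitamins, fatty acids, nucleosides, drugs and other organic molecules down a gradient or together with an ion. Most ABC proteins are pumps that use ATP to push lipids, sterols, conjugates or peptides across a membrane, whereas the ABCE and ABCF members have no membrane part and act in translation, and ABCC8 is the regulatory subunit of a potassium channel. In the liver such carriers and pumps take solutes from blood and pass them into bile. In the brain they guard the blood-brain and blood-cerebrospinal fluid barriers, and the epithelium of the rumen, a forestomach chamber, absorbs products of fermentation after birth.

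All samples were poly(A) RNA of wild type (WT), male Holstein fetuses labelled as 90 days old. Each of the 3 tissues had 2 libraries, named Forebrain 1 and 2, Liver 1 and 2, and Rumen 1 and 2. The cows were slaughtered at an abattoir, fetal crown-rump length was 13 to 16 cm, and the study had 2 male fetuses, which sets the upper limit on the animals behind these 6 libraries. No label ties a library to a fetus. The p-values therefore reflect the spread between these libraries only, and that spread could be technical. In bulk tissue a lower level from fewer cells of a type cannot be told apart from less RNA per cell.

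Libraries held 10271024 to 18528958 counts. Normalised read counts (CPM) are scaled to the library total times its TMM factor, and 3 counts over both libraries of a tissue correspond to 0.115 CPM (forebrain), 0.103 CPM (liver) and 0.116 CPM (rumen). The labelled tissues were checked against markers, in lists also chosen with earlier results of these data known. Markers of hepatocytes, 12 in number, summed to 249512 and 214419 CPM in the liver libraries and to 2.53 to 18.8 CPM in the others. Neuron markers, 10 in number, summed to 11526 and 11067 CPM in forebrain, against 51.6 to 389 elsewhere, and 8 stratified epithelium markers to 14257 and 11618 CPM in rumen, against 6.71 to 183 elsewhere. Red cell precursor markers, 10 of 10 detected in liver, summed to 13834 and 9097 CPM there and to 9.76 to 11.2 CPM in the other libraries.

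The liver pair stood apart from the other pairs. Among genes with a mean of at least 1000 counts, the log2 ratio between the 2 libraries of a tissue had an SD of 0.942 in liver, 0.248 in forebrain and 0.211 in rumen. Of 56 members with at least 50 counts in liver and a count in both libraries, 28 differed more than 2-fold between Liver 1 and Liver 2, with a median difference of 1.95-fold. Over all genes of that depth in liver the median was 1.56-fold, and 31.7% differed more than 2-fold. Higher in Liver 2 were 17 of the 28, led by ABCG8 at 6.41-fold, ABCC5 at 4.69-fold and ABCC6 at 4.63-fold. Higher in Liver 1 were 11, led by SLCO3A1 at 7.43-fold, ABCE1 at 5.34-fold and ABCA1 at 4.54-fold. The same limit of 2-fold was passed by 3 of 40 members in forebrain and by 2 of 38 in rumen.

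**Figure D1:**
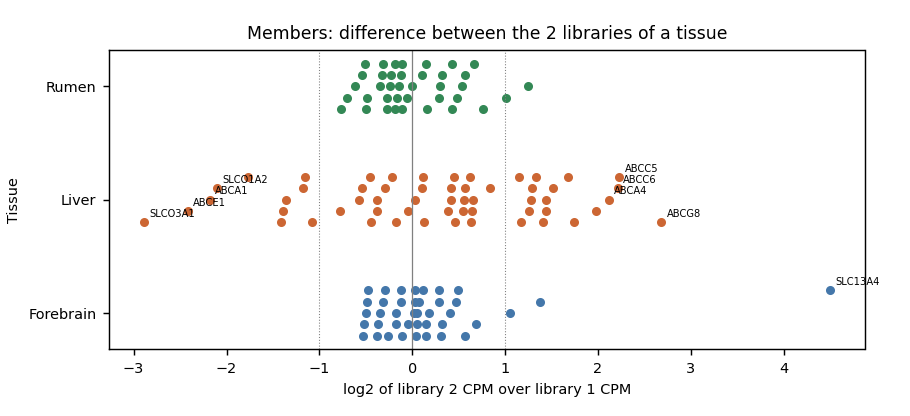
Difference between the 2 libraries of each tissue, for members with at least 50 counts in that tissue. Each point is a gene, the x axis is log2 of library 2 CPM over library 1 CPM, vertical offsets only separate points, dotted lines mark 2-fold, and genes past a log2 ratio of 2 in size are named. The spread was widest in liver, where 28 of 56 points lie outside the dotted lines, while in forebrain SLC13A4 stood out at 22.6-fold.

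Of the 79 members, SLC13A2 had no counts in any library, 9 had too few counts to be tested, and 69 were tested among 11478 genes. Members with no counts in a tissue numbered 9 in forebrain, 8 in liver and 19 in rumen. The member with the highest share of member counts in liver was SLC29A1, with 28.4% in Liver 1 and 25.7% in Liver 2. Liver gave the highest pooled CPM for 44 of the 69 tested members (63.8%, against 39.9% of all tested genes), forebrain for 16 (23.2% against 35.5%) and rumen for 9 (13% against 24.6%). A total of 13 tested members passed the count filter through libraries of 1 tissue only, 9 of them through liver, so these counts describe the tested members and are not evidence of a difference.

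**Figure D2:**
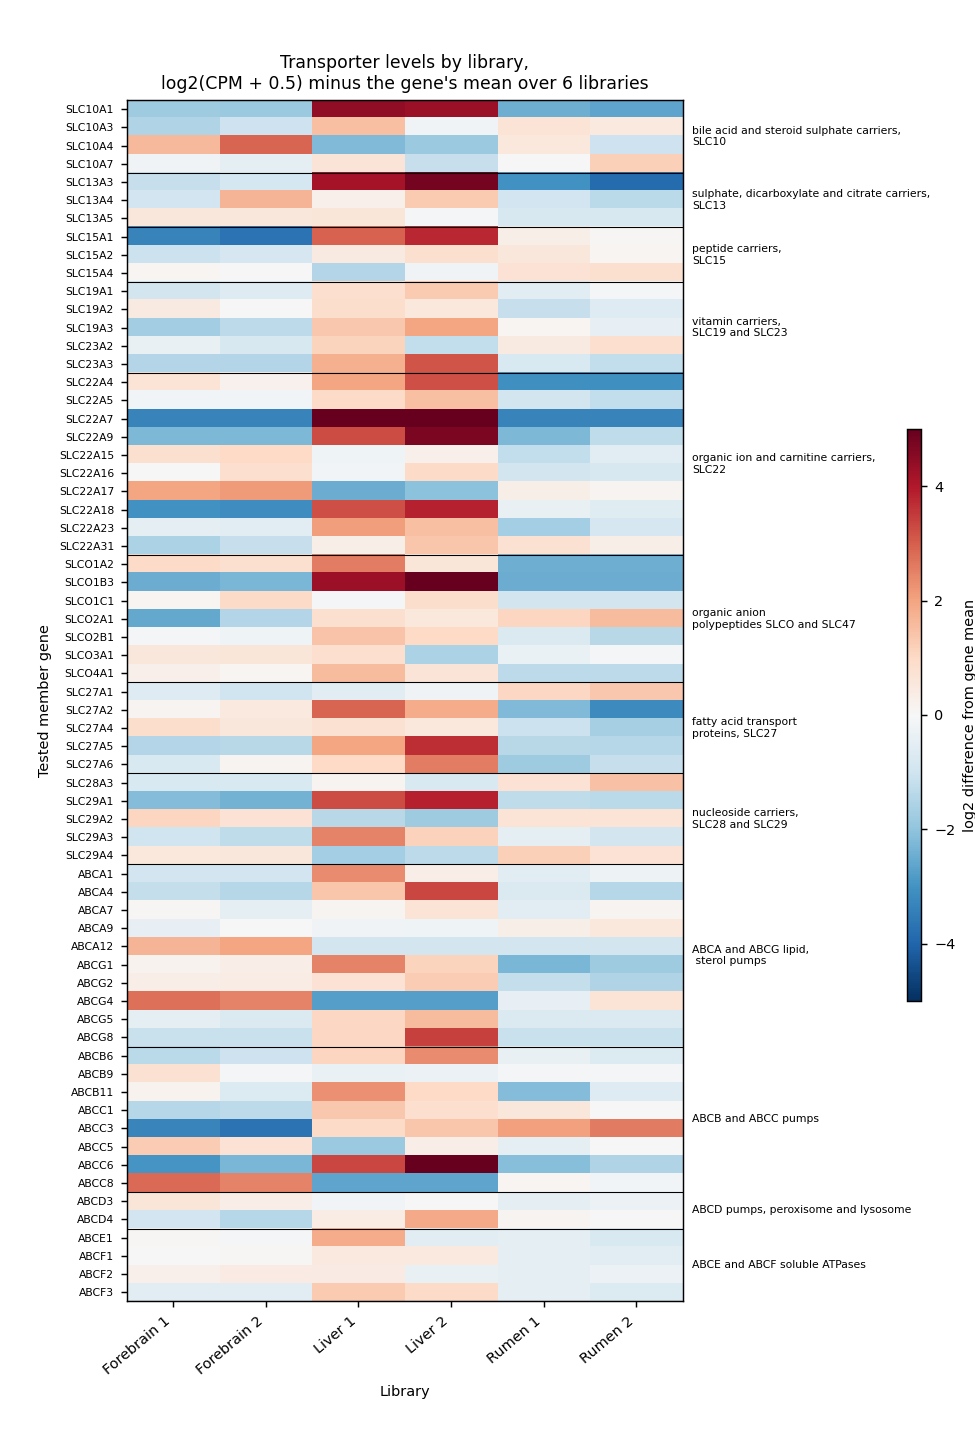
Levels of 66 of the 69 tested members in the 6 libraries, grouped by role. Colour is log2(CPM + 0.5) minus the gene's mean over the 6 libraries, red above and blue below that mean, with the scale ending at 5 in each direction. Red cells are most frequent in the columns of Liver 1 and Liver 2, where 44 of the 69 had their highest pooled level.

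In liver against forebrain 41 of 69 tested members passed an edgeR adjusted p of 0.05 (55.3% of all tested genes did), in rumen against liver 43 (40.3%) and in rumen against forebrain 26 (39.3%). In liver against forebrain, 34 of 69 tested members were higher (49.3%, where 29.4% of all tested genes were higher) and 7 were lower (10.1%, against 25.9% of all tested genes). In rumen against liver, 35 were lower (50.7%, against 20.3%) and 8 were higher (11.6%, against 20.1%). In rumen against forebrain, 10 were higher (14.5%, against 19.5%) and 16 were lower (23.2%, against 19.9%). The 3 comparisons share libraries and a common spread per gene, which includes that of the liver pair. The counts given for role groups and pathway lists stand against these same shares of all tested genes. Median log2 fold changes of the tested members were 1.71 in liver minus forebrain (0.14 over all tested genes), -2.08 in rumen minus liver (-0.06) and -0.57 in rumen minus forebrain (-0.01). With genes that lack counts in a tissue set at the bound that 3 counts allow, the members' medians were 1.49, -2.08 and -0.03.

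**Figure D3:**
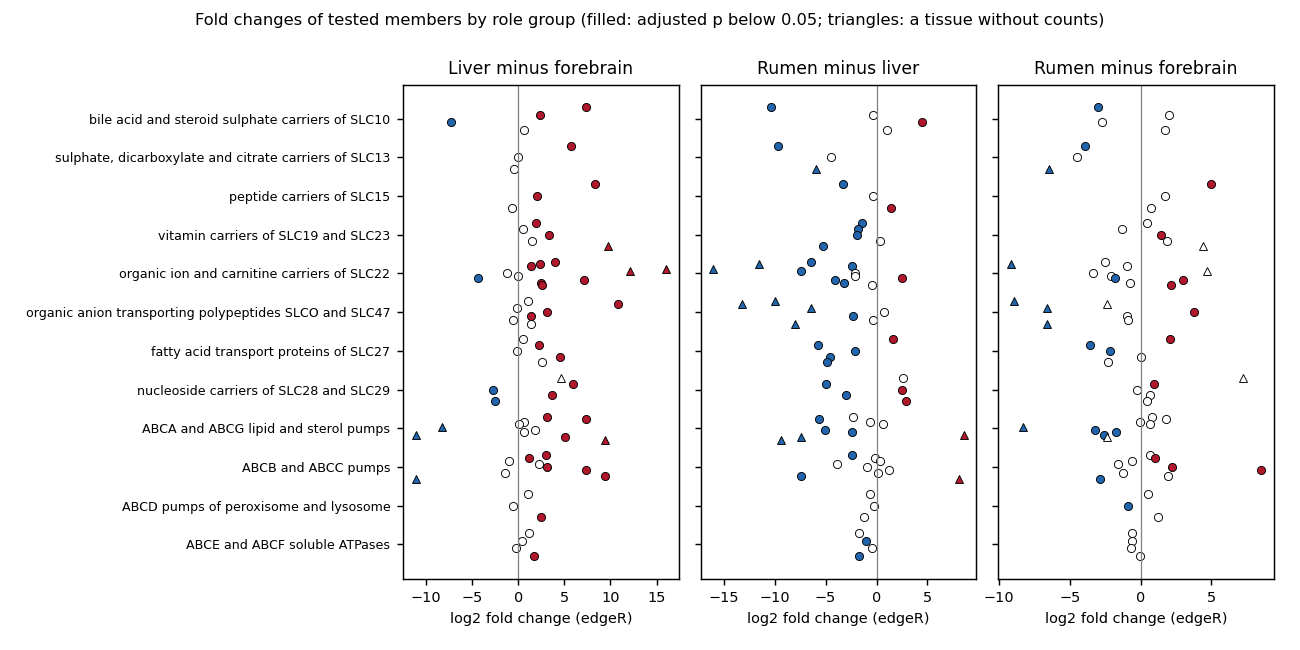
Log2 fold changes of tested members in the 3 comparisons by role group, from edgeR. Filled points passed an adjusted p of 0.05 (red higher, blue lower, open not called), and triangles have a tissue without counts, so that their position depends on the prior count of the fit. In liver minus forebrain 34 filled points are red and 7 blue, and in rumen minus liver 8 are red and 35 blue.

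A member was called enriched in a tissue where it was higher than both other tissues, each with an adjusted p under 0.05 and a log2 fold change of at least 2, and depleted where it was lower by the same limits. Liver had 20 enriched members of 69, where 9.01% of all tested genes were enriched in liver. Forebrain had 3, ABCA12, ABCC8 and ABCG4, against 8.22% of all tested genes. Rumen had 0 enriched members by edgeR, also 0 at an unadjusted p under 0.05 and 0 by DESeq2, against 3.76% of all tested genes. Rumen was the tissue of lowest level for 10 depleted members (2.06% of all tested genes were depleted there), forebrain for 6 (6.7%) and liver for 6 (6.57%).

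**Figure D4:**
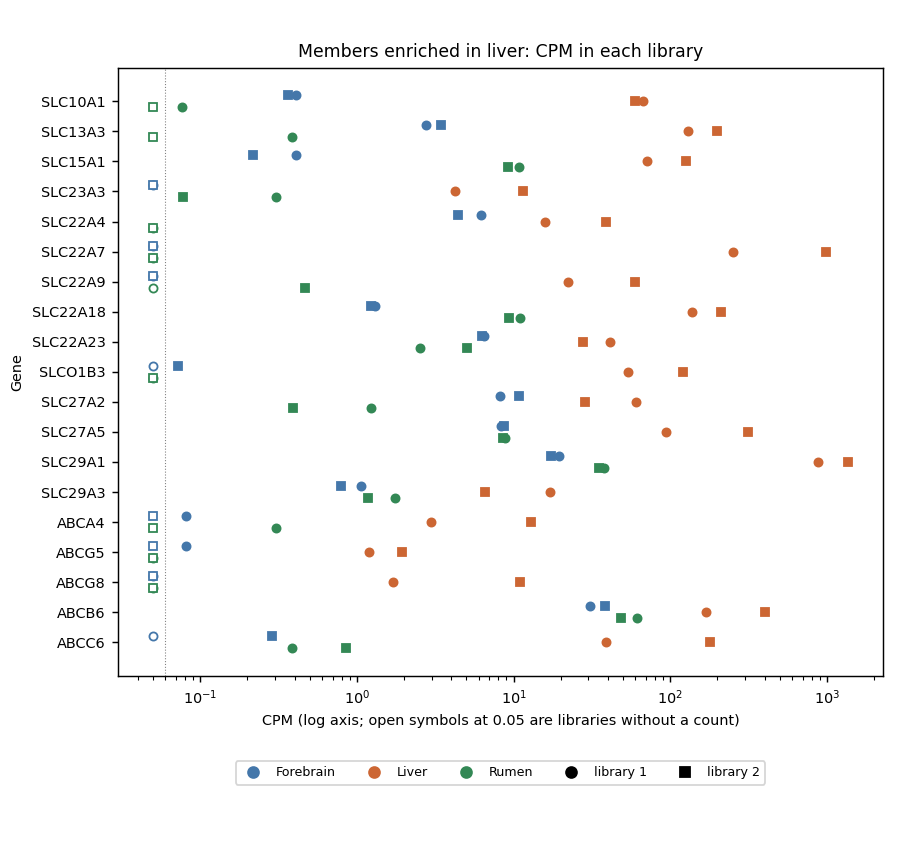
CPM of 19 of the 20 members enriched in liver, in each library, on a log axis. Colours are tissues, circles are library 1 and squares library 2, and open symbols at the left edge are libraries without a count. For each gene both orange liver points lie to the right of all other points, from ABCG5 at 1.19 and 1.93 CPM to SLC29A1 at 874 and 1362 CPM.

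Sodium-coupled bile acid carriers come first. SLC10A1, the basolateral uptake carrier for bile salts of hepatocytes, stood at 67.1 and 59.2 CPM in Liver 1 and 2, at 0.407 and 0.361 in Forebrain 1 and 2 and at 0.0765 and 0 in Rumen 1 and 2. The liver values lie far above the rest, and the 2 liver libraries were close to each other. The log2 fold change was 7.33 ± 0.50 (SE) against forebrain (adjusted p = 0.000105). In rumen a single read was counted, and the ratio of liver to rumen was 1627 with a 95% counting interval of 292 to 64296 (adjusted p = 0.000227). Rumen was also below forebrain by edgeR (ratio of forebrain to rumen 9.90, interval 1.41 to 429, adjusted p = 0.0308), a call resting on 10 reads against 1 and not made by DESeq2 or with only these 2 tissues fitted.

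SLC10A4, a vesicular relative found in cholinergic and monoaminergic neurons, was highest in forebrain. It measured 6.51 and 16.9 CPM in forebrain, 2.83 and 0.624 in rumen and 0 and 0.128 in liver. The 2 liver libraries together held 2 reads, and the forebrain to liver ratio was 174 with an interval of 47.8 to 1444 (adjusted p = 0.00498). Rumen minus forebrain for SLC10A4 did not pass (-2.75 ± 1.01, adjusted p = 0.0713). SLC10A3, whose substrate is not known, was higher in liver (19 and 5.59 CPM) than in forebrain (1.95 and 2.89 CPM) at an adjusted p of 0.0268, lost with library totals and with only these 2 tissues fitted. SLC10A7 passed in none of the comparisons, and the steroid sulphate carrier SLC10A6 had 8 reads, all in forebrain.

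The apical bile salt export pump ABCB11 was not called. It measured 10.2 and 3.98 CPM in liver, 2.03 and 0.866 in forebrain and 0 and 0.936 in rumen. The liver libraries lie above all others and differ 2.56-fold between themselves. Among 18 tested genes of bile acid synthesis, conjugation and regulation, 17 were higher in liver than in forebrain (29.4% of all tested genes). In rumen against liver 13 were lower (20.3%). In rumen against forebrain 6 of the 18 were higher (19.5%) and 1, KLB, was lower (19.9%). The median log2 fold change of the 18 was 6.83 in liver minus forebrain and -4.71 in rumen minus liver, where the medians of all tested genes were 0.14 and -0.06. EPHX1, an epoxide hydrolase also studied as a bile acid binding protein, was highest in liver (292 and 189 CPM), lower in rumen (115 and 111 CPM) and lowest in forebrain (22 and 24.2 CPM), and all 3 of its differences passed. KLB, the co-receptor for the bile acid feedback hormone, measured 149 and 178 CPM in liver, 26.8 and 22.2 in forebrain and only 6.27 and 7.41 in rumen.

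The SLC13 family carries sulphate, dicarboxylates and citrate. SLC13A3, which takes up succinate and other dicarboxylates with sodium, stood at 129 and 200 CPM in liver, 2.76 and 3.46 in forebrain and 0.383 and 0 in rumen. The 3 tissues did not overlap. Liver exceeded forebrain by a log2 fold change of 5.72 ± 0.59 (adjusted p = 0.000445), and rumen lay below forebrain by -3.95 ± 0.79 (adjusted p = 0.00886). SLC13A5, the citrate carrier, reached at most 0.819 CPM and had no reads in rumen. Forebrain was at least 6.93-fold higher than rumen (adjusted p = 0.031) and liver at least 4.76-fold higher (adjusted p = 0.0406), but neither call held when low-count genes were kept in the fit. The call against liver was also not made by DESeq2 or with only these 2 tissues fitted.

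SLC13A4, a sulphate carrier, differed strongly between the forebrain libraries. It measured 0.163 CPM in Forebrain 1 and 3.68 CPM in Forebrain 2, and it passed in no comparison. The organic anion exchanger SLC22A6, with too few reads to be tested, had 2 reads in Forebrain 1 and 21 in Forebrain 2 and none elsewhere. SLC22A8 had 2 reads, both in Forebrain 2. Markers of the meninges moved in the same direction, with a sum over 8 detected genes of 124 CPM in Forebrain 1 and 244 CPM in Forebrain 2. That sum was 519 and 502 CPM in liver and 7000 and 7355 CPM in rumen, so it is not particular to meninges. The meningeal carrier SLC6A13 had 91 reads (7.40 CPM) in Forebrain 1 and 159 (11.5 CPM) in Forebrain 2. Choroid plexus markers moved the other way, at 183 and 105 CPM, with KL at 0 in all libraries. Their sum was 2223 and 2731 CPM in liver, so it is not particular to choroid plexus either. The part of either cell type in the difference between the forebrain libraries was not tested.

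Peptide carriers showed a ladder of levels for SLC15A1, the proton-coupled uptake carrier for di- and tripeptides that is best known from the intestine. Liver held 70.6 and 127 CPM, rumen 10.8 and 9.21 CPM, and forebrain 0.407 and 0.217 CPM. Every library of a tissue stood apart from those of the other tissues. The log2 fold change was 8.28 ± 0.54 in liver against forebrain (adjusted p = 9.35e-05), 4.98 ± 0.51 in rumen against forebrain (adjusted p = 0.000822) and -3.30 ± 0.39 in rumen against liver (adjusted p = 0.00124). It is therefore enriched in liver and depleted in forebrain.

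The related SLC15A2, with higher affinity for peptides, differed less. It measured 2.98 and 3.98 CPM in liver, 3.29 and 2.26 in rumen and 0.732 and 0.938 in forebrain, and liver against forebrain passed narrowly (log2 fold change 2.05 ± 0.68, adjusted p = 0.0399), a call that was lost with library totals, with no filter and with only these 2 tissues fitted. SLC15A4, which exports peptides and histidine from endolysosomes, had the most counts of the group. Its level was highest in rumen, but rumen and forebrain did not differ beyond the threshold (adjusted p = 0.199). Rumen measured 120 and 129 CPM, forebrain 77.8 and 71.6, and liver 26.4 and 64.6, and rumen against liver passed at 1.45 ± 0.41 (adjusted p = 0.0326), a call lost with only these 2 tissues fitted. Of 10 genes of peptide loading and lysosomal proteolysis, 6 were higher in liver than in forebrain (29.4% of all tested genes). In rumen, 5 were higher than in forebrain (19.5%) and 3 were lower than in liver (20.3%). The cathepsin gene CTSB measured 359 and 338 CPM in liver, 325 and 310 in rumen and 166 and 154 in forebrain.

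Vitamin carriers for folate and thiamine had their highest levels in liver, but not every difference passed. SLC19A1, the reduced folate carrier, measured 35.9 and 49.3 CPM in liver, 13.2 and 18.3 in rumen and 10.2 and 12.5 in forebrain. Rumen and forebrain did not differ beyond the threshold, and liver was above both, by 1.91 ± 0.34 against forebrain (adjusted p = 0.00405) and with rumen minus liver at -1.44 ± 0.33 (adjusted p = 0.0161). SLC19A3, a thiamine carrier, had 3 separate levels, with 34.2 and 53.7 CPM in liver, 14.1 and 9.91 in rumen and 3.58 and 5.05 in forebrain. All 3 of its comparisons passed, the smallest being rumen minus forebrain at 1.47 ± 0.40 (adjusted p = 0.0279). The other thiamine carrier, SLC19A2, was lower in rumen (1.53 and 2.42 CPM) than in liver (7.74 and 5.97 CPM) at an adjusted p of 0.0473. That call was lost with library totals, with no filter and with only these 2 tissues fitted. Forebrain measured 5.61 and 3.97 CPM, and liver minus forebrain for SLC19A2 did not pass (0.52 ± 0.55, adjusted p = 0.455).

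The SLC23 family carries ascorbate and purines. The ascorbate carrier SLC23A2 stood at or below 2.75 CPM in all libraries, with 2.75 CPM in Liver 1 and 0.128 in Liver 2, and passed in no comparison. SLC23A3, a relative not known to carry ascorbate, was enriched in liver, at 4.24 and 11.5 CPM there, 0.306 and 0.0780 in rumen and no reads in forebrain. Liver was at least 70.9-fold above forebrain (adjusted p = 0.00421), and rumen minus liver was -5.29 ± 1.09 (adjusted p = 0.014).

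Among 14 tested genes that handle folate, thiamine and ascorbate, 8 were higher in liver than in forebrain (29.4% of all tested genes). In rumen against liver 7 were lower (20.3%). Rumen against forebrain gave 3 higher and 1 lower (19.5% and 19.9%). GULO, the last enzyme of ascorbate synthesis, which cattle retain, measured 428 and 885 CPM in liver and at most 0.390 CPM in the other libraries, a log2 fold change of 11.42 ± 0.61 over forebrain (adjusted p = 6.28e-05). GGH, which trims the glutamate tail of folates, was low in rumen (7.12 and 9.75 CPM) and similar in forebrain (133 and 125 CPM) and liver (91.9 and 166 CPM). Rumen minus forebrain for GGH was -3.94 ± 0.38 (adjusted p = 0.000688).

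The SLC22 family, carriers of organic anions, cations and carnitine, held 6 of the 20 members enriched in liver. SLC22A7, an organic anion carrier of the basolateral hepatocyte membrane, was counted in liver alone, at 252 CPM in Liver 1 and 989 CPM in Liver 2, without a read in forebrain or rumen. The 2 liver libraries differed 3.93-fold. Liver was at least 5645-fold above forebrain (adjusted p = 0.00149) and at least 5587-fold above rumen (adjusted p = 0.00237). In the RefSeq gene table the gene overlaps CRIP3, and without a known strand setting reads of overlapping genes cannot be told apart. CRIP3 had 85 and 152 counts in liver, few beside the 18780 counts of SLC22A7.

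SLC22A9, another organic anion carrier, measured 22.2 and 60.0 CPM in liver, 0 and 0.468 in rumen and had no reads in forebrain. Liver exceeded forebrain at least 370-fold (adjusted p = 0.00269), and rumen minus liver was -7.41 ± 1.20 (adjusted p = 0.00619).

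SLC22A18, a carrier with no settled substrate, formed the same ladder as SLC15A1. Liver measured 137 and 210 CPM, rumen 10.9 and 9.29 CPM, and forebrain 1.30 and 1.23 CPM. Its log2 fold changes were 7.09 ± 0.37 in liver minus forebrain (adjusted p = 6.13e-05), 2.99 ± 0.33 in rumen minus forebrain (adjusted p = 0.00112) and -4.10 ± 0.31 in rumen minus liver (adjusted p = 0.000329). SLC22A23 measured 41.2 and 27.6 CPM in liver, 6.51 and 6.28 in forebrain and 2.53 and 5.07 in rumen, and liver stood above both. SLC22A31 was lowest in forebrain (1.30 and 1.95 CPM), with overlapping values in liver (6.18 and 13.9 CPM) and rumen (8.72 and 6.16 CPM), and both differences from forebrain passed.

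The carnitine branch is formed by SLC22A5, the high-affinity carnitine carrier, and its genomic neighbour SLC22A4, which carries ergothioneine. SLC22A5 measured 32.1 and 46.9 CPM in liver, 14.7 and 15 in forebrain and 8.42 and 6.71 in rumen. Liver was above forebrain by 1.41 ± 0.33 (adjusted p = 0.0118), a call lost with library totals, and rumen minus liver was -2.38 ± 0.34 (adjusted p = 0.00266). SLC22A4 went further, with 15.9 and 38.7 CPM in liver, 6.18 and 4.40 in forebrain and no reads in either rumen library. Liver exceeded forebrain by 2.37 ± 0.60 (adjusted p = 0.0202). Liver was at least 243-fold (adjusted p = 0.00127) and forebrain at least 45.2-fold (adjusted p = 0.00334) above rumen. The neighbours thus differed in rumen, with SLC22A5 counted in both libraries and SLC22A4 in neither.

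SLC22A17, a receptor for iron-binding lipocalin complexes, was highest in forebrain. It measured 311 and 345 CPM there, 96.4 and 88.3 in rumen and 13.8 and 18.9 in liver. The 3 tissues were clearly separated. Liver minus forebrain was -4.32 ± 0.27 (adjusted p = 8.88e-05), rumen minus forebrain -1.83 ± 0.24 (adjusted p = 0.00208) and rumen minus liver 2.49 ± 0.25 (adjusted p = 0.000688). SLC22A15 and SLC22A16 stayed at or below 2.76 CPM and passed in no comparison, and SLC22A10 had 3 reads, all in Liver 2.

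Across SLC22, 8 of 11 tested members were higher in liver than in forebrain and 1 was lower, where 29.4% and 25.9% of all tested genes were. In rumen against liver 7 were lower and 1 higher (20.3% and 20.1% of all tested genes). Rumen against forebrain gave 2 higher and 2 lower (19.5% and 19.9%). Among 17 tested genes of carnitine handling and fatty acid activation, 11 were higher and 3 lower in liver than in forebrain, 8 lower and 2 higher in rumen than in liver, and 7 higher and 2 lower in rumen than in forebrain. ACADVL, the first enzyme of mitochondrial very-long-chain oxidation, measured 131 and 266 CPM in liver, 72.2 and 77.5 in rumen and 31.2 and 38.0 in forebrain. FABP3, a cytosolic fatty acid binder, ran the other way, at 266 and 314 CPM in forebrain, 23.6 and 22.9 in rumen and 13.6 and 10.4 in liver.

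Organic anion transporting polypeptides included 1 gene with all but 1 of its reads in liver. SLCO1B3, a hepatocyte uptake carrier for bile acids and bilirubin conjugates, measured 54.1 and 120 CPM in liver, 0 and 0.0722 in forebrain and had no reads in rumen. The ratio of liver to the 1 read in forebrain was 2346, with an interval of 421 to 92716 (adjusted p = 0.000392). Liver was at least 774-fold above rumen (adjusted p = 0.00065).

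Others of the family were marked by their absence from the rumen counts. SLCO1A2, a carrier of bile acids and thyroid hormones known from brain capillaries, measured 4.72 and 4.19 CPM in forebrain and 15.5 and 3.60 in liver, with no reads in rumen. Forebrain was at least 38.3-fold above rumen (adjusted p = 0.00895) and liver at least 78.5-fold (adjusted p = 0.00558). SLCO1C1, the thyroxine carrier of brain capillaries, was low in forebrain (0.488 and 1.30 CPM) and liver (0.372 and 1.22 CPM) and had no reads in rumen. Its bounds were 7.92-fold over rumen for forebrain (adjusted p = 0.0394) and 7.14-fold for liver (adjusted p = 0.042), and both calls were lost with no filter and with only the 2 tissues fitted. SLCO4A1, also a thyroid hormone carrier, was measured at 0.976 and 0.794 CPM in forebrain and 3.2 and 1.41 in liver, with no reads in rumen and bounds of 7.59-fold (adjusted p = 0.0229) and 19.3-fold (adjusted p = 0.011). Endothelial markers summed to 645 and 444 CPM in liver, 414 and 370 in rumen and 261 and 355 in forebrain. In rumen against forebrain 4 of these 12 markers were higher and 1, MFSD2A, was lower. The part of endothelial cells in these differences was not tested.

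SLCO2A1, the prostaglandin uptake carrier, was depleted in forebrain. It measured 0.407 and 1.44 CPM there, 8.78 and 7.19 in liver and 10.6 and 15.5 in rumen. Liver and rumen did not differ beyond the threshold, while rumen minus forebrain was 3.79 ± 0.71 (adjusted p = 0.00743) and liver minus forebrain 3.08 ± 0.69 (adjusted p = 0.00987). SLCO2B1, a broad carrier of steroid sulphates, was highest in liver, at 32.0 and 23.3 CPM, with 10.8 and 10.0 in forebrain and 6.89 and 4.06 in rumen. Both differences of SLCO2B1 from liver passed, but the one from forebrain was lost with library totals. SLCO3A1 passed in no comparison, SLCO4C1 had 39 reads over the 6 libraries, and SLC47A2 had 2 reads, both in Liver 1.

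Fatty acid transport proteins divided by tissue. SLC27A5, the bile acid CoA ligase of liver, measured 93.9 and 313 CPM in liver and 8.38 to 8.88 CPM in the other 4 libraries. Liver minus forebrain was 4.58 ± 0.60 (adjusted p = 0.00113), and rumen minus liver was -4.55 ± 0.60 (adjusted p = 0.00187). SLC27A2, a very-long-chain acyl-CoA synthetase, stepped from 60.2 and 28.4 CPM in liver to 8.21 and 10.9 in forebrain and 1.22 and 0.390 in rumen, and all 3 comparisons passed. SLC27A6 was lower in rumen (0.0765 and 0.390 CPM) than in liver (3.42 and 11 CPM) at an adjusted p of 0.0157.

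SLC27A1, the fatty acid transporter best known from muscle and fat, was the 1 member of the family that was highest in rumen. Rumen measured 37.0 and 46.2 CPM, liver 12.1 and 15.9, and forebrain 11.3 and 8.66. It rose by 2.06 ± 0.33 against forebrain (adjusted p = 0.00438) and by 1.57 ± 0.33 against liver (adjusted p = 0.0106). Smooth muscle and pericyte markers summed to 8385 and 8840 CPM in rumen, 444 and 261 in liver and 84.5 and 110 in forebrain, and their part in the SLC27A1 difference was not tested. SLC27A4 was lowest in rumen, at 6.58 and 4.29 CPM in rumen, 27.5 and 22 in forebrain and 24.9 and 21.3 in liver. Rumen minus forebrain for SLC27A4 was -2.18 ± 0.37 (adjusted p = 0.00537) and rumen minus liver -2.08 ± 0.37 (adjusted p = 0.00587).

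Among nucleoside carriers, SLC29A1, the equilibrative carrier of the plasma membrane, supplied more counts than any other member. It measured 874 and 1362 CPM in liver, 37.8 and 35.0 in rumen and 19.6 and 17.3 in forebrain. All libraries of a tissue stood apart from those of the others. Liver minus forebrain was 5.92 ± 0.33 (adjusted p = 6.97e-05), rumen minus liver -4.94 ± 0.32 (adjusted p = 0.000229) and rumen minus forebrain 0.98 ± 0.28 (adjusted p = 0.0314), the last lost with library totals. The protein is also abundant on red cells, and all 10 red cell precursor markers were higher in liver than in both other tissues. The marker sums of red cell precursors and of hepatocytes were both lower in Liver 2, where SLC29A1 was higher. The part of either cell type in the liver level was not tested.

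Among the other equilibrative carriers, SLC29A3, the lysosomal form, was also enriched in liver at 17.2 and 6.55 CPM, against 1.06 and 0.794 in forebrain and 1.76 and 1.17 in rumen. SLC29A2, the second plasma membrane form, was depleted in liver, at 2.53 and 1.86 CPM, against 16.3 and 12.8 in forebrain and 12.4 and 12.3 in rumen. Its log2 fold change in liver minus forebrain was -2.72 ± 0.44 (adjusted p = 0.00279), and rumen minus liver was 2.49 ± 0.44 (adjusted p = 0.00571). SLC29A4, a monoamine carrier of the same family, was also depleted in liver, at 0.819 and 1.22 CPM, against 5.69 and 5.85 in forebrain and 9.11 and 6.48 in rumen. Rumen minus liver for SLC29A4 was 2.92 ± 0.58 (adjusted p = 0.00873).

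Concentrative carriers, which use the sodium gradient, were near the counting limit. SLC28A1 had 5 reads, all in liver, and SLC28A3 had 0.918 and 1.87 CPM in rumen, 0.447 and 0 in liver and none in forebrain, with no comparison passing. Among 13 tested genes of nucleoside salvage and breakdown, liver against forebrain gave 3 higher and 3 lower (29.4% and 25.9% of all tested genes). In rumen against liver 6 were lower and 1 higher (20.3% and 20.1%). Rumen against forebrain gave 4 higher and 4 lower (19.5% and 19.9%). TK1, the S-phase thymidine kinase, measured 493 and 335 CPM in liver, 41.6 and 33.3 in rumen and 17.4 and 17.1 in forebrain. NT5E, the surface enzyme that makes adenosine from AMP, was highest in rumen, at 76.4 and 59.9 CPM, with 28.9 and 31.5 in forebrain and 10.4 and 13.6 in liver.

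Sterol and lipid pumps were low in rumen for several members. ABCG5 and ABCG8, neighbouring genes whose products pair to export sterols into bile, were both enriched in liver. ABCG5 measured 1.19 and 1.93 CPM in liver and a single read outside it, in Forebrain 1. ABCG8 measured 1.71 CPM in Liver 1 and 11 in Liver 2 and had no reads elsewhere. The bound for liver over rumen was 13.7-fold for ABCG5 (adjusted p = 0.0223) and 57.7-fold for ABCG8 (adjusted p = 0.0241). Over forebrain the ratio for ABCG5 was 41.5, with an interval of 7.08 to 1674 (adjusted p = 0.0271), and the bound for ABCG8 was 58.3-fold (adjusted p = 0.0176). ABCG5 was not called against forebrain by DESeq2 or with no filter on low counts.

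ABCG1, which loads cholesterol onto lipoproteins, was depleted in rumen, at 0.230 and 0.546 CPM, against 3.50 and 3.97 in forebrain and 19.3 and 7.26 in liver. Rumen minus liver was -5.06 ± 0.82 (adjusted p = 0.00395), and rumen minus forebrain was -3.24 ± 0.78 (adjusted p = 0.0183). ABCA1, which gives cholesterol to apolipoprotein A1, measured 14.0 and 3.08 CPM in liver, 0.976 and 0.938 in forebrain and 1.45 and 1.87 in rumen, and the difference of liver from forebrain passed (3.14 ± 0.88, adjusted p = 0.0224). Macrophages also use both pumps, and their markers summed to 1069 and 462 CPM in liver against 38.9 to 99.7 CPM elsewhere. Their part was not tested.

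ABCG2, a pump for urate and many drugs, had the most counts among the ABCA and ABCG members. It measured 90.5 and 134 CPM in liver, 68.6 and 72.0 in forebrain and 23.8 and 19.2 in rumen. Rumen lay below both, by -2.38 ± 0.28 against liver (adjusted p = 0.00129) and -1.71 ± 0.28 against forebrain (adjusted p = 0.00451), and liver and forebrain did not differ beyond the threshold. ABCA4, the retinal lipid flippase of photoreceptors, was enriched in liver at 2.98 and 12.9 CPM, with 1 read in forebrain and 4 in rumen. The ratio of liver to forebrain was 217, with an interval of 38.6 to 8619 (adjusted p = 0.0105).

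ABCG4 and ABCA12 were highest in forebrain. ABCG4, a sterol pump of neurons, measured 22.7 and 18.5 CPM in forebrain, 2.07 and 4.92 in rumen and had no reads in liver. Forebrain was at least 198-fold above liver (adjusted p = 0.000797), and rumen minus forebrain was -2.56 ± 0.61 (adjusted p = 0.0237). ABCA12, the lipid pump of lamellar granules in keratinising epithelium, was counted in forebrain alone, at 2.6 and 3.2 CPM, a level at least 25.1-fold above rumen (adjusted p = 0.0161) and at least 28.1-fold above liver (adjusted p = 0.0104). It thus had no reads in the rumen, whose libraries held the stratified epithelium markers, among them KRT5 at 351 and 251 CPM. The limit of 3 counts in rumen is 0.116 CPM. ABCA7 and ABCA9 passed in no comparison.

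**Figure D5:**
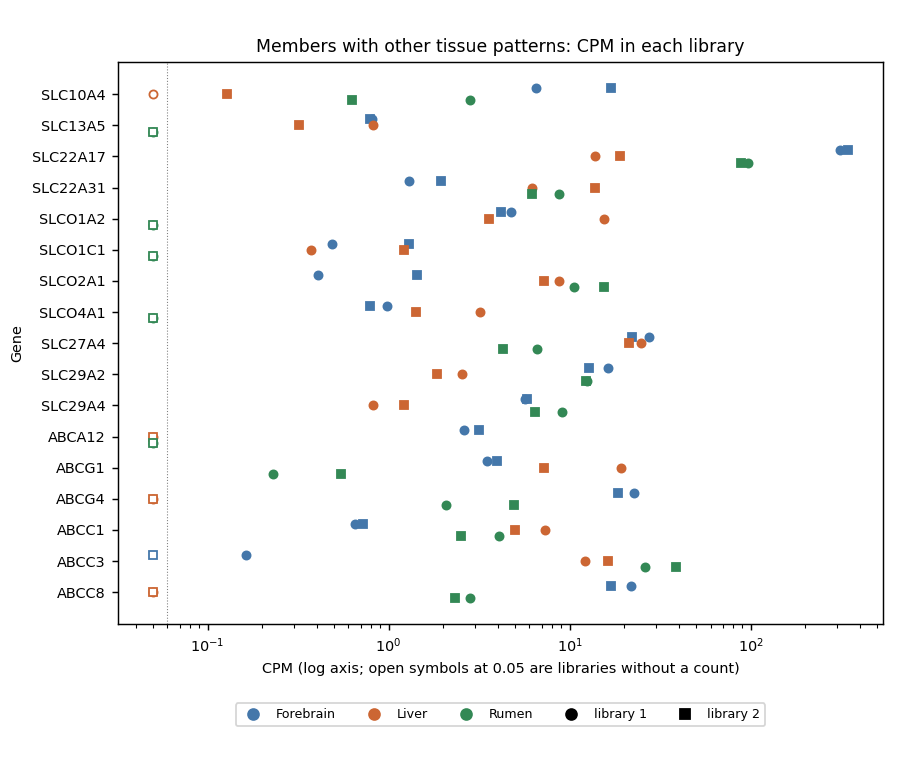
CPM of 17 members that were enriched or depleted in a tissue without being enriched in liver, in each library, on a log axis. Colours are tissues, circles are library 1 and squares library 2, and open symbols at the left edge are libraries without a count. Blue forebrain points lie to the right for SLC22A17, ABCG4 and ABCC8, and to the left for ABCC3, ABCC1 and SLCO2A1, while green rumen points are open for SLCO1A2, SLCO1C1 and SLCO4A1.

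Of 10 tested ABCA and ABCG members, 4 were higher and 2 lower in liver than in forebrain (29.4% and 25.9% of all tested genes). In rumen against liver 5 were lower and 1 higher (20.3% and 20.1%), and in rumen against forebrain 4 were lower (19.9%). Among 12 tested partners in sterol efflux and lipoprotein handling, 11 were higher in liver than in forebrain and 1, PLTP, was lower. In rumen against liver 8 were lower and 1 higher, and in rumen against forebrain 6 were higher and 2 lower. APOE, an acceptor for sterols leaving cells, measured 4303 and 4351 CPM in liver, 395 and 712 in forebrain and 87.9 and 76.6 in rumen. PLTP, which moves phospholipid between lipoproteins, was highest in rumen, at 381 and 367 CPM, with 100 and 109 in forebrain and 19.7 and 14.9 in liver.

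Pumps of the ABCB and ABCC subfamilies divided into liver, forebrain and shared patterns. ABCC6, an ATP-releasing pump of hepatocytes, measured 38.8 and 180 CPM in liver, 0 and 0.289 in forebrain and 0.383 and 0.858 in rumen. Liver minus forebrain was 9.41 ± 1.23 (adjusted p = 0.00111), and rumen minus liver was -7.44 ± 1.06 (adjusted p = 0.00254). Its neighbour in the RefSeq gene order, ABCC1, an exporter of glutathione conjugates, overlaps it in the table, so reads of the pair are not fully separable. ABCC1 measured 7.30 and 5.01 CPM in liver, 4.06 and 2.50 in rumen and 0.650 and 0.722 in forebrain, and it was depleted in forebrain.

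ABCC3, the basolateral exporter of glucuronides and bile acids, was depleted in forebrain. It measured 26.0 and 38.7 CPM in rumen, 12.2 and 16.3 in liver and 0.163 and 0 in forebrain. The 2 reads in forebrain gave a rumen to forebrain ratio of 422, with an interval of 117 to 3493 (adjusted p = 0.0007), and a liver to forebrain ratio of 188, with an interval of 51.9 to 1561 (adjusted p = 0.00057). Both rumen libraries lay above both liver libraries, but that difference did not pass.

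ABCC8, the sulphonylurea receptor subunit of a potassium channel, was highest in forebrain and lowest in liver. It measured 21.8 and 16.8 CPM in forebrain, 2.83 and 2.34 in rumen and had no reads in liver. Forebrain was at least 185-fold above liver (adjusted p = 0.00043), rumen was at least 25.0-fold above liver (adjusted p = 0.00228), and rumen minus forebrain was -2.90 ± 0.52 (adjusted p = 0.00922). ABCC5, an exporter of cyclic nucleotides, had many counts but passed in no comparison, with 129 and 89.3 CPM in forebrain, 39.1 and 52.4 in rumen and 14.7 and 68.7 in liver. Its liver libraries spanned the rumen values.

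ABCB6, a porphyrin-linked pump of mitochondria and the red cell membrane, measured 168 and 404 CPM in liver, 61.1 and 48.1 in rumen and 30.7 and 38.1 in forebrain. Liver minus forebrain was 3.06 ± 0.45 (adjusted p = 0.00188), and rumen minus liver was -2.39 ± 0.44 (adjusted p = 0.00665). The red cell precursor markers named above were high in the same libraries, at a lower sum in Liver 2, where ABCB6 was higher, and their part was not tested. ABCB9 passed in no comparison.

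The ABCD subfamily holds peroxisomal and lysosomal pumps. ABCD3, which imports branched fatty acids and bile acid precursors into peroxisomes, measured 71.4 and 59.4 CPM in forebrain, 34.4 and 38.1 in rumen and 42.7 and 45.9 in liver, and rumen minus forebrain passed at -0.85 ± 0.23 (adjusted p = 0.0275). ABCD4, which serves cobalamin export from lysosomes, was higher in liver (40.6 and 116 CPM) than in forebrain (15.8 and 11.3 CPM) by 2.53 ± 0.52 (adjusted p = 0.00686), with 34.1 and 30.7 CPM in rumen. ABCD2 had 8 reads, all in forebrain. In rumen against liver 0 of 3 tested ABCD members passed by edgeR and 0 by DESeq2, with 1 at an unadjusted p under 0.05. Among 19 tested genes of peroxisome assembly and oxidation, liver against forebrain gave 8 higher and 1 lower (29.4% and 25.9% of all tested genes). Rumen against forebrain gave 3 higher and 2 lower (19.5% and 19.9%). In rumen against liver 3 were lower by edgeR (20.3% of all tested genes) and 7 by DESeq2. CAT, the peroxisomal catalase, measured 1147 and 651 CPM in liver, 145 and 131 in rumen and 92.3 and 91.9 in forebrain.

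The soluble ATPases of the ABCE and ABCF subfamilies were counted in all libraries. ABCF1, a translation initiation factor partner, measured 179 and 182 CPM in liver, 130 and 135 in forebrain and 92.9 and 86.3 in rumen. Rumen minus liver passed at -1.01 ± 0.20 (adjusted p = 0.00839), a small difference with close libraries. ABCF3 was higher in liver (83.0 and 64.0 CPM) than in forebrain (22.3 and 22.5 CPM) and rumen (23.3 and 20.5 CPM), by 1.71 ± 0.26 over forebrain (adjusted p = 0.00203). ABCE1, which recycles ribosomes, measured 76.5 CPM in Liver 1 and 14.3 in Liver 2, against 12.1 to 21.6 CPM in the other libraries, and it passed in no comparison, nor did ABCF2. In rumen against forebrain 0 of these 4 members passed by edgeR, with 1 at an unadjusted p under 0.05 and 1 lower by DESeq2.

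Of the 69 tested members, 54 passed in at least 1 comparison, 11 in all 3 and 15 in none, where 68.2%, 14.1% and 31.8% of all tested genes did so. The 11 were ABCC8, ABCG4, SLC10A1, SLC13A3, SLC15A1, SLC19A3, SLC22A17, SLC22A18, SLC22A4, SLC27A2 and SLC29A1. In library values, both liver libraries lay above both forebrain libraries for 44 of 69 tested members (63.8%, against 40.1% of all tested genes) and below for 12 (17.4%, against 37.8%). Both rumen libraries lay below both liver libraries for 45 (65.2%, against 34.6%) and above for 13 (18.8%, against 34.6%). Rumen lay above forebrain for 26 (37.7%, against 39.7%) and below for 31 (44.9%, against 41.4%), both shares near those of all tested genes.

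Calls were repeated with each library left out in turn, where the lone library of a tissue is assumed to vary like the other tissues. The share of all tested genes called also fell in each comparison without a forebrain or rumen library and rose without a liver library. Lost calls therefore do not by themselves single out these members or a library. In liver minus forebrain 21 of 41 calls were made in all such fits, in rumen minus liver 22 of 43 and in rumen minus forebrain 8 of 26. The 8 were ABCC3, SLC15A1, SLC22A17, SLC22A18, SLC22A4, SLC27A2, SLCO1A2 and SLCO2A1. Of the 20 members enriched in liver, SLC10A1, SLC13A3, SLC15A1, SLC22A18, SLC22A7, SLC22A9, SLC27A5, SLC29A1, SLCO1B3 and ABCC6 kept both of their calls. The lost calls given next are those of members reported by name. In liver minus forebrain, 10 calls (ABCA12, ABCA4, ABCC1, ABCG8, SLC22A31, SLC22A4, SLC22A5, SLC27A2, SLC29A4 and SLCO2B1) were not made without either forebrain library, with adjusted p from 0.0573 to 0.149. ABCD4, SLC22A23 and SLC29A3 needed Forebrain 2 (0.0509 to 0.0631) and SLCO2A1 needed Forebrain 1 (0.0559). ABCA1 needed both forebrain libraries and Liver 1 (0.113 to 0.132), ABCG5 both forebrain libraries and Liver 2 (0.0637 to 0.248). SLC10A3 needed every library but Liver 2 (0.0546 to 0.152), and SLC15A2 needed every library but Liver 1 (0.0675 to 0.244).

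In rumen minus liver, 9 calls (ABCA4, ABCF1, ABCG8, SLC19A1, SLC19A3, SLC23A3, SLC27A1, SLC27A6 and SLC29A3) were not made without either rumen library, with adjusted p from just above 0.05 to 0.119. ABCB6, SLC27A4 and SLCO2B1 needed Rumen 2 (0.0547 to 0.069) and SLC29A4 needed Rumen 1 (0.0572). ABCG5, SLC15A4 and SLCO4A1 needed all forebrain and rumen libraries (0.0539 to 0.132), and SLC10A4 both forebrain libraries and Rumen 1 (0.0648 to 0.182), its call being lost also with only these 2 tissues fitted. SLC13A5 and SLC19A2 needed every library but Liver 2 (0.0507 to 0.210), and SLCO1C1 every library but Liver 1 (0.101 to 0.145). In rumen minus forebrain, 12 calls (ABCA12, ABCC1, ABCC8, ABCD3, ABCG1, ABCG4, SLC13A5, SLC19A3, SLC22A31, SLC29A1, SLCO1C1 and SLCO4A1) needed all forebrain and rumen libraries (0.0538 to 0.249). SLC13A3 and SLC27A1 needed Forebrain 2 (0.0505 to 0.0531), SLC27A4 Forebrain 1 and Rumen 2 (0.0513 to 0.0542), ABCG2 Rumen 2 (0.0559), and SLC10A1 both forebrain libraries and Rumen 2 (0.108 to 0.160).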

How the data were processed

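The deposited values are raw counts by gene symbol from the authors, unscaled whole numbers in 1 column per library, with 0 columns unmatched. Reads were processed with HISAT2 2.0.5, featureCounts 1.5.0-p3 and edgeR 3.18.1, as the submitters' processing notes record. Which build, annotation and strand option were used is not given in the sources used here. A RefSeq table (ARS-UCD2.0) served only for names and neighbours.

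For the present comparisons edgeR 4.0.16 (R 4.3.3) was run with filterByExpr, TMM scaling, a quasi-likelihood fit of tissue means without a block (3 residual degrees of freedom) and Benjamini-Hochberg adjustment over 11478 genes, with a threshold of 0.05. Errors are SE derived from the test, namely the size of the log2 coefficient without prior count divided by the square root of its F statistic. The log2 fold changes beside them include the prior count. Against a tissue without counts only a lower bound is given, namely the other tissue's pooled CPM divided by that of 3 counts over the empty pair. With 1 to 3 counts the pooled ratio has a 95% interval. Bounds and intervals cover counting error only. Alternatives were DESeq2 1.42.0, DESeq2 size factors, library totals, no filter, a replicate block, only the 2 tissues compared, and each library left out. The code of the fit was also run on simulated counts. There all tissues had the same spread, unlike the liver pair here, so that run gives no assurance for these p-values.

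The 12 role groups, 7 pathway lists and 12 marker lists, like the members, were chosen with earlier results of these data known. Named with values were enriched or depleted members, the member with most counts in each group, and members fixed by known role. Further members are described where a group is accounted for, and were chosen after their values were seen. Pathway genes named have the most counts in their list or direction, with KLB, PLTP and GULO among them. KRT5, SLC6A13 and MFSD2A were named after their values were seen. A few members are counted in the totals but are not reported here.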

Additional observations from a re-analysis of the deposited data

How the results depend on the processing

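Under the 6 alternatives that kept all libraries of the tissues compared, the counts of members called moved by less than 1.5 times, except that members higher in rumen than in forebrain numbered 16, not 10, when only these 2 tissues were fitted. In that fit 65.5% of all genes passed. With a library left out, members higher and lower numbered 4 to 15 and 5 to 26 in rumen minus forebrain, 4 to 11 and 19 to 38 in rumen minus liver, and 17 to 37 and 5 to 10 in liver minus forebrain. In rumen minus forebrain the lowest counts came without a forebrain or rumen library and the counts above those reported without a liver library. The share of all tested genes called moved in the same way. The labels do not say whether equal replicate numbers share a fetus. Correlations of same-numbered deviations were 0.079 (forebrain and liver), -0.076 (forebrain and rumen) and 0.0084 (liver and rumen). With 2 libraries per tissue and a wide liver pair, such low values cannot exclude a shared fetus. With a replicate block, members higher and lower were 8 and 11 in rumen minus forebrain, 7 and 31 in rumen minus liver, and 32 and 7 in liver minus forebrain. Among members reported by name, the calls not made with the block were those of ABCA12, ABCC1, ABCD3, SLC13A5, SLC29A1, SLCO1C1 and SLCO4A1 in rumen minus forebrain, ABCG5, SLC10A4, SLC13A5, SLC19A2 and SLCO1C1 in rumen minus liver, and ABCG5 and SLC15A2 in liver minus forebrain. Scaling by library totals moved the median log2 fold change of all genes to -0.16, 0.23 and -0.34 in the same order, from -0.01, -0.06 and 0.14.

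Signs turned only for uncalled differences of named members. In rumen minus forebrain, SLC27A5 was -0.030 with DESeq2 size factors, -0.13 with library totals, -0.032 by DESeq2 and -0.0061 to 0.087 with a library left out, while ABCA4 ranged from -2.38 to 4.18. In rumen minus liver, library totals gave 0.049 for ABCD3, and with a library left out SLC22A31 ranged from -0.90 to 0.27 and SLC23A2 from -0.57 to 3.76. In liver minus forebrain, library totals gave -0.046 for ABCF1. There the values with a library left out ranged from -0.54 to 1.88 for ABCE1, from -1.90 to 2.43 for SLC23A2, from -0.31 to 1.79 for SLCO1A2, from -1.25 to 0.70 for SLCO1C1, from -1.30 to 0.023 for SLC13A5 and from -0.25 to 0.065 for SLC27A4. All are log2 fold changes, and the cause was not tested. SLC13A5 and SLCO1C1 reached at most 0.819 and 1.30 CPM and had no reads in rumen, where 3 counts over both libraries correspond to 0.116 CPM.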
